A study of Mus musculus with 12 samples.

Results

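The 8 genes described here are a chosen set of metallothioneins and zinc transporters, measured in mouse liver. They are Mt1 and Mt2, the importers Slc39a14, Slc39a8, Slc39a5 and Slc39a4, and the exporters Slc30a1 and Slc30a10. They were taken by symbol in the GENCODE M21 annotation, and each of the 8 symbols matched 1 of the 54232 Ensembl gene IDs counted in the liver RNA. The question was how the transcripts of these genes differed between alcohol-fed (AF) and pair-fed (PF) livers in an intragastric model of alcohol-associated steatohepatitis. The PF group (n = 5) held male C57BL6/J mice, labelled with an age of 8 weeks, that received an isocaloric high-fat liquid diet for 8 weeks without ethanol. Mice of the AF group (n = 7) were of the same strain, sex and labelled age and received the high-fat liquid diet with ethanol for the same 8 weeks, at a dose raised over that time to 27 g/kg per day, plus a weekly ethanol binge of 5 g/kg that did not start with the first week. Both groups therefore carried the high-fat liquid diet. Per the study's methods, a solid diet rich in cholesterol and saturated fat supplied the remaining calories, mice had eaten that diet or regular chow before, with no label for which mouse had which, and tissue was taken the day after the last binge. The libraries hold RNA of whole liver, in which fewer cells of a type and less RNA per cell cannot be told apart. The labels number the libraries, and the count table adds a further number to each that differs between libraries but is not explained; whether each is a separate animal is not stated, so p-values measure the spread between these samples.

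Metallothioneins are small proteins in which cysteines, spaced through the whole chain, hold zinc and copper ions and buffer the free metal of the cell. Their genes are induced by zinc through the transcription factor MTF1, which binds metal response elements in their promoters, and in liver also by glucocorticoids and by interleukin-6 acting through STAT3. Transporters of the SLC39 (ZIP) family move zinc into the cytosol, from outside the cell or out of organelles, whereas those of the SLC30 (ZnT) family move metal out of the cytosol; some members of both families also carry manganese or iron. Liver takes up zinc during an acute-phase response, with SLC39A14 and the metallothioneins as the best known parts of that response.

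Mt2 (ENSMUSG00000031762) and Mt1 (ENSMUSG00000031765) lie side by side on the + strand of chromosome 8 in GRCm38, at chr8:94172664-94173568 and chr8:94179082-94180327, with 5514 bases between them. Their coding sequences, read from the first GENCODE M21 transcript of each gene, are shown because they carry the feature that binds metal and because they show whether reads could be told apart between the pair. Codons for cysteine (TGC or TGT) are in capitals.
Mt1 coding sequence: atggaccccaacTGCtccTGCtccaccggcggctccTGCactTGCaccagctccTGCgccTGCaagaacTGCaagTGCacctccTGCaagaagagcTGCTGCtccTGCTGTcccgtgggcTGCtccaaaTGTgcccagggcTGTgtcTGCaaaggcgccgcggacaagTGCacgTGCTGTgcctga
Mt2 coding sequence: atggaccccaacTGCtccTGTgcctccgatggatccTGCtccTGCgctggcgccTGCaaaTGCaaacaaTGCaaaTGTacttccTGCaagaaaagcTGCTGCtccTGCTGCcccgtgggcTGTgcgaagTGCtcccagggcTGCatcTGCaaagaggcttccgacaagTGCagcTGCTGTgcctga
Each sequence has 186 bases in 3 exons and 61 codons before the stop, of which 20, or 32.8%, were cysteine codons, and all 20 stood at the same places in both genes. The sequences shared 148 of 186 bases (79.6%), and the longest run of bases common to both transcripts was 20 bases.

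Promoter windows from 250 bases before to 50 bases after the start site were in the RefSeq table of GRCm38.p6 for 6 of the 8 members (8 windows). The 4 windows that held at least 2 metal response element cores, searched as TGCACNC or TGCGCNC on both strands, are shown with these cores in capitals.
Mt1 promoter, chr8:94178839-94179138 (+ strand): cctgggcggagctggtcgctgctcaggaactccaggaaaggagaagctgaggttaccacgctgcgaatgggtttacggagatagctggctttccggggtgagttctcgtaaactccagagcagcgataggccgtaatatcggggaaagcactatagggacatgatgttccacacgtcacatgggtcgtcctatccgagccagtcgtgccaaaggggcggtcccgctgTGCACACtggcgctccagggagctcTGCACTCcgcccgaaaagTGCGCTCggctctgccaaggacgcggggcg
Mt2 promoter, chr8:94172368-94172667 (+ strand): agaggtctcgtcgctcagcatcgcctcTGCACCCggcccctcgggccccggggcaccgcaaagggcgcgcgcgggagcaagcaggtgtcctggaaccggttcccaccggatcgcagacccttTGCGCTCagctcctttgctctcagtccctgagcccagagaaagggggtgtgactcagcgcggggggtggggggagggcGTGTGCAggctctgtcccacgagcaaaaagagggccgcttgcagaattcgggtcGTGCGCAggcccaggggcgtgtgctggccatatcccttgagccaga
Slc30a1 promoter, chr1:191906531-191906830 (+ strand): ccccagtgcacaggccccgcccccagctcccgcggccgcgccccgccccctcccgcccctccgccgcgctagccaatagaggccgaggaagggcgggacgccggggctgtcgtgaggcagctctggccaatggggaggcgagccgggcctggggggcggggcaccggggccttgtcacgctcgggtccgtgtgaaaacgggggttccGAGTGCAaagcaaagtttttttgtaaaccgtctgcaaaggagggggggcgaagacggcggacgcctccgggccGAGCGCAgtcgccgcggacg
Slc30a10 promoter, chr1:185454598-185454897 (+ strand): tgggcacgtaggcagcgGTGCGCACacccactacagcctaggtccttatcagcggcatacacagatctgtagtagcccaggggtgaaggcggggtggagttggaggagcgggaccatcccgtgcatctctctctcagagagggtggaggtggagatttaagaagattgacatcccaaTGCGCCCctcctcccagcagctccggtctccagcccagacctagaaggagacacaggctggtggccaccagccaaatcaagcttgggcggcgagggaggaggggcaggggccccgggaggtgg
Mt2 held 4 cores, which began at bases -223, -128, -50 and 5 counted from the start site as base 1. The 3 cores of Mt1 began at bases -23, 3 and 21, those of Slc30a1 at -43 and 31, and those of Slc30a10 at -233, -232 and -73, the first pair being matches of opposite strands that overlap. One of the 2 windows of Slc39a8 and one of the 2 of Slc39a5 held 1 core. Among all 32817 promoter windows of this length in the table, 25.7% held at least 1 core, 7.12% at least 2, 1.97% at least 3 and 0.518% at least 4. The antioxidant response core TGACNNNGC, present in 12.4% of all windows, was found once in the windows of Mt2 and Slc30a1, once in a window of Slc39a8 and at 2 places in a window of Slc39a5. The STAT motif TTCNNNGAA was in 8.29% of all windows and in 0 of the 8 windows of these genes. A match describes these letters only.

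Counts were deep for 7 of the 8 genes. Library totals ran from 24129900 to 28594027 counts in PF and from 25099033 to 30578639 in AF, and levels are given as CPM, the counts of a gene relative to the library total after scaling with TMM factors, which correct for differences in RNA composition. Markers of several other liver cell types differed between AF and PF, beside 22.0% of all genes tested called higher and 17.8% called lower. Of the markers tested, 5 of 6 for stellate cells and fibrosis and 4 of 5 for bile duct were higher in AF by edgeR. The same held for 4 of 5 Kupffer cell markers and 3 of 5 for recruited macrophages, while 3 of 6 for hepatocytes were lower. For sinusoidal endothelium 1 of 5 was higher, close to the share over all genes. Summed endothelial markers covered 108 to 232 CPM in PF and 131 to 237 CPM in AF. Of 5 erythroid markers Alas2 was lower, while the 4 globin genes did not pass at log2 fold changes of 0.81 to 1.02. Of 5 neutrophil markers, 0 passed in edgeR, with S100a8 at -1.51 (adjusted p = 0.0584) and S100a9 at -1.45 (adjusted p = 0.0594) the 2 that had an unadjusted p under 0.05 and the 2 that passed in DESeq2 (adjusted p = 0.0445 and 0.0461); the summed neutrophil markers stood at 721 CPM in PF replicate 1 against 49.1 to 184 CPM in the other PF livers and 43.1 to 159 CPM in AF. Summed hepatocyte markers covered 89209 to 131079 CPM in PF and 45499 to 94631 CPM in AF, and summed stellate markers 37.8 to 92.6 CPM in PF and 79.8 to 504 CPM in AF. AF replicate 6 stood apart from the other AF livers in its stellate sum of 79.8 CPM and its TMM factor of 0.880. Both lay within the PF ranges, where the factors ran from 0.832 to 0.901, and the other AF livers had stellate sums of 157 to 504 CPM. It did not stand apart in every marker set. AF replicate 7 had a lower bile duct sum, at 70.3 against 87.4 CPM. The Kupffer cell sum of AF replicate 6, 1109 CPM, was above the PF range of 573 to 777 CPM. The part of cell composition in the differences below was not tested. Pancreatic acinar markers, fixed because Slc39a5 is known for its expression in pancreas, summed to 0.639 CPM or less in every library, with Prss1 and Amy2a5 at 0.

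Of the 7 members tested, 1 was higher (Slc39a4) and 1 lower (Slc30a10) in AF at an adjusted p under 0.05 in edgeR's quasi-likelihood test, against 22.0% of all 14168 genes tested called higher and 17.8% called lower. Slc39a5, at 0 to 3 counts per library, fell below the filter on low counts. The median log2 fold change over the 7 was -0.03 against 0.04 over all genes tested, and the median absolute value 0.54 against 0.35. None of the 7 separated the groups without overlap, which 17.7% of the genes tested did. In Slc39a14, Slc39a4 and Slc30a10, 6 of the 7 AF livers lay outside the PF range on 1 side, and 1 liver did not: AF replicate 6 for Slc39a14 and AF replicate 2 for the other two.

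**Figure D1:**
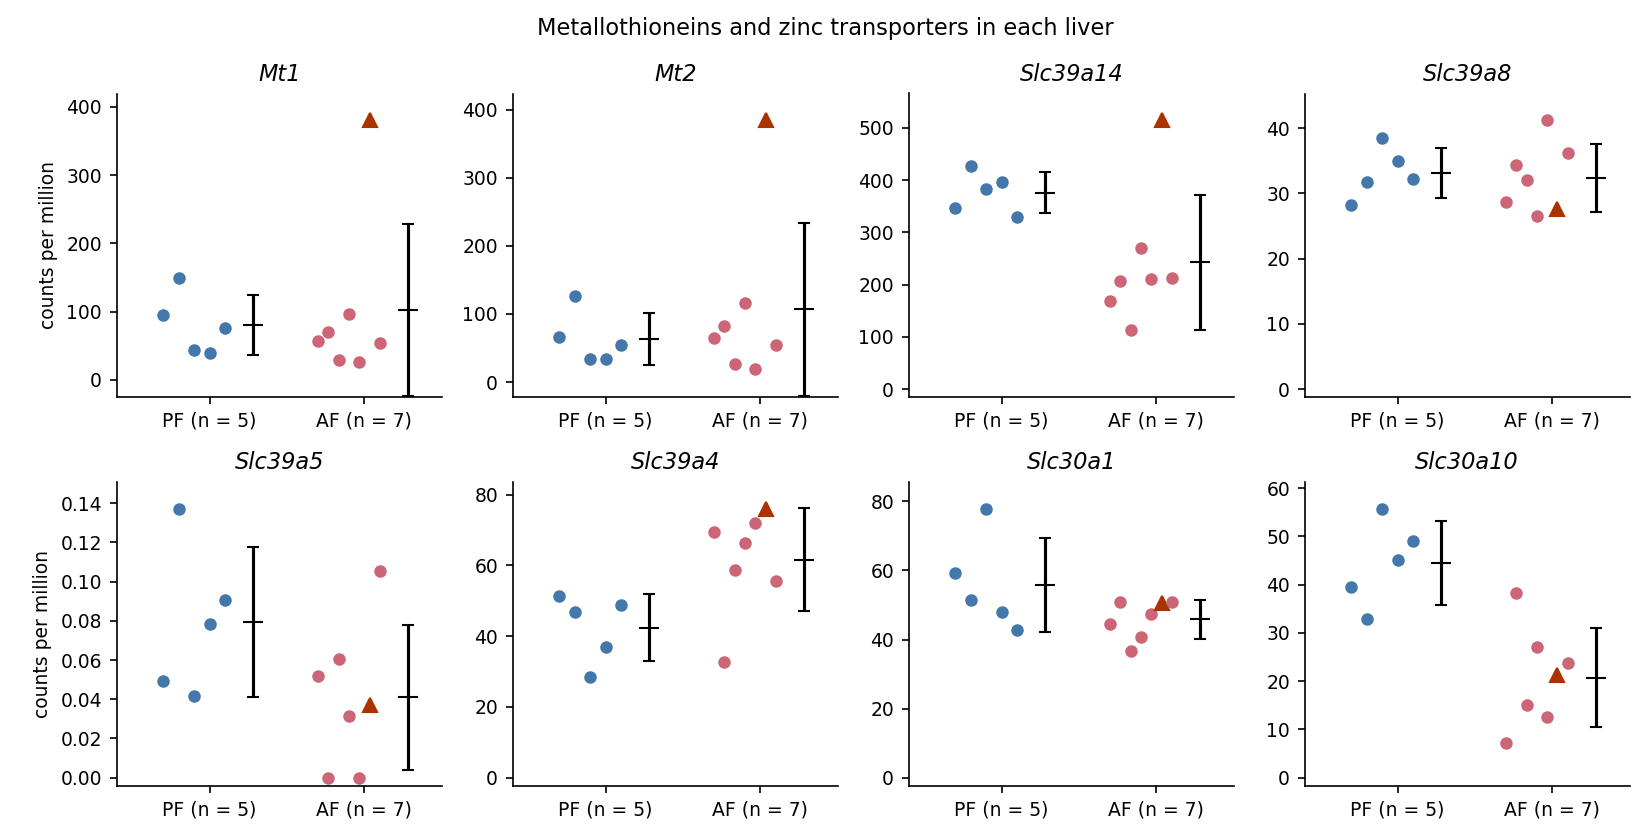
CPM of the 8 genes (y axis, linear) in each PF (blue) and AF (red) liver, with AF replicate 6 as a triangle; black marks give the mean and SD of the group. AF replicate 6 reached 381 CPM for Mt1, 385 CPM for Mt2 and 515 CPM for Slc39a14, above all other livers, while 6 of 7 AF livers lay under the PF range for Slc30a10.

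Per kilobase of annotated exon, the order of the levels in PF livers was Mt2 at 107 ± 65.1 CPM (SD, n = 5), Mt1 at 64.6 ± 35.6, Slc39a14 at 35.7 ± 3.69, Slc39a4 at 13.7 ± 3.08, Slc30a1 at 10.6 ± 2.61, Slc30a10 at 7.61 ± 1.50, Slc39a8 at 4.32 ± 0.501 and Slc39a5 at 0.0357 ± 0.0171. Ranges overlapped between Mt2 and Mt1, between Mt1 and Slc39a14, and along the run from Slc39a4 to Slc30a10, and the other neighbours did not overlap. In AF livers the per-kilobase levels kept that order except that Slc39a8, at 4.22 ± 0.688 CPM (n = 7), stood above Slc30a10, at 3.55 ± 1.77 CPM, with overlapping ranges. The order at the top rests on the length used: per kilobase of the transcript that GENCODE numbers first, Slc39a14 had 179 ± 18.6 CPM in PF livers, Mt1 147 ± 80.9 and Mt2 123 ± 74.9. Slc39a4, a zinc importer best known for uptake in the intestine, was thus a liver transcript of middle rank here, and Slc39a5 was barely detected.

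The metallothioneins varied more between livers of 1 group than they differed between the groups. Mt1 measured 94.6, 149, 44.5, 39.1 and 75.5 CPM in PF replicates 1 to 5 and 57.0, 70.9, 29.7, 97.2, 26.9, 381 and 54.0 CPM in AF replicates 1 to 7. Every AF liver but replicate 6 was below PF replicate 2, and the groups overlapped. Mt2 measured 65.8, 127, 34.3, 33.2 and 54.3 CPM in the PF livers and 64.9, 82.3, 26.5, 117, 19.1, 385 and 53.8 CPM in the AF livers. The same livers were at the extremes for both genes, with PF replicate 2 highest and PF replicate 4 lowest in PF, and AF replicate 6 highest and AF replicate 5 lowest in AF. AF replicate 6 exceeded the median of the other AF livers 6.87-fold for Mt1 and 6.49-fold for Mt2.

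Neither metallothionein passed the test between groups. For Mt1 the log2 fold change was 0.35 (SE 0.620, 95% interval -0.99 to 1.68, edgeR adjusted p = 0.677), and for Mt2 it was 0.77 (SE 0.655, interval -0.65 to 2.18, adjusted p = 0.367). An exact two-sided permutation test of mean log2 CPM over the 792 splits into 5 and 7 gave p = 0.919 for Mt1, with a mean difference of -0.075, so that the direction differs between the fitted and the log mean, and p = 0.706 for Mt2. Without AF replicate 6 the log2 fold changes were -0.52 for Mt1 (edgeR adjusted p = 0.285) and -0.053 for Mt2 (adjusted p = 0.936). The SD of log2 CPM was 1.27 for Mt1 and 1.42 for Mt2 in AF, and 0.79 for both in PF, against medians of 0.22 and 0.15 over the 7681 genes above 10 CPM; within AF, 99.0% and 99.3% of those genes had a smaller SD. The antisense gene Gm45774 overlaps 432 exon bases of Mt2 on the other strand and held 30 reads in the 12 libraries. Of the family's other members, Mt4 had 0 reads and Mt3 reached at most 0.0777 CPM.

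Mt1 and Mt2 moved together but not in a fixed proportion. Across the 7 AF livers, log2 CPM of the pair had r = 0.987 (exact permutation p = 1.98e-04, adjusted over 21 pairs of members 0.00417) and rho = 1.0 (exact p = 3.97e-04, adjusted 0.00833), and r was 0.997 without AF replicates 5 and 6, the livers farthest from the median. This was the only pair of the 21 that passed the adjustment. The 5 PF livers were too few for such a test and were not pooled with AF. The ratio of Mt1 to Mt2 CPM within each liver, which hardly depends on library scaling, was 1.44, 1.17, 1.29, 1.17 and 1.39 in the PF livers. The AF livers gave ratios of CPM of 0.879, 0.863, 1.12, 0.834, 1.40, 0.990 and 1.00, so that 6 of the 7 lay below every PF liver and AF replicate 5 lay within the PF range. Which gene had the higher level rests on the length used, since the PF ratios ran from 0.553 to 0.678 per kilobase of annotated exon (1246 bases for Mt1, 588 for Mt2) and from 1.09 to 1.34 per kilobase of the first transcript, whereas the comparison between livers does not change with length. The log2 ratio of CPM averaged 0.36 ± 0.134 in PF (SD, n = 5) and -0.00 ± 0.260 in AF (n = 7), a difference of -0.37 (exact permutation p = 0.0215, adjusted over 4 ratios 0.0370). That call was lost without any one of PF replicates 1, 3, 4 and 5 or AF replicates 1, 2 and 4, with adjusted p up to 0.0848.

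**Figure D2:**
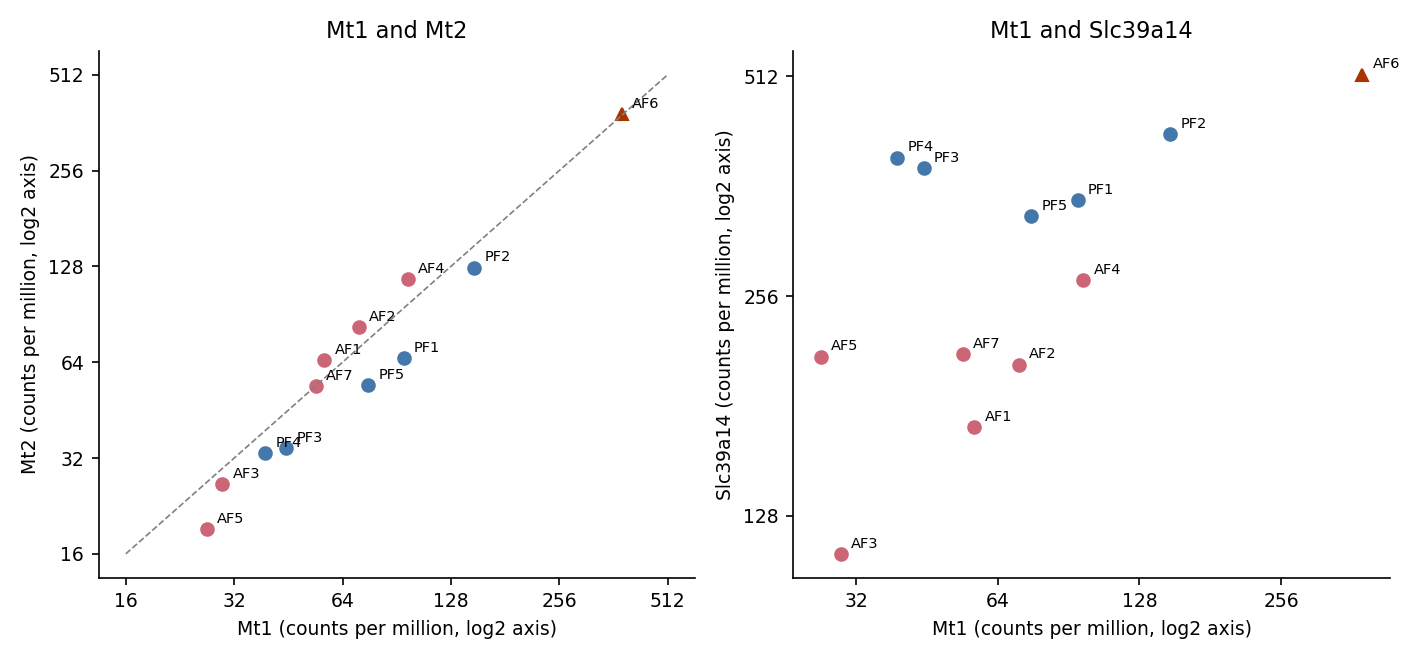
CPM of Mt1 (x axis) against Mt2 (left) and Slc39a14 (right) in each liver, both axes on a log2 scale, PF in blue, AF in red and AF replicate 6 as a triangle; the dashed line marks equal CPM, not corrected for gene length. All 5 PF livers lie below that line in the left panel, and in the right panel 6 of 7 AF livers lie under every PF liver while AF replicate 6 lies above them.

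Slc39a14 (ENSMUSG00000022094, chr14:70303469-70351425, - strand) encodes ZIP14, the hepatic importer of zinc, iron and manganese that inflammation induces. It measured 346, 427, 383, 396 and 330 CPM in PF livers and 169, 206, 114, 269, 212, 515 and 213 CPM in AF livers. In 6 of 7 AF livers the level was below every PF liver, and in AF replicate 6 it was above every PF liver. The log2 fold change of -0.63 (SE 0.283, unadjusted 95% interval -1.24 to -0.03) did not pass (edgeR adjusted p = 0.0887), and the single-gene exact permutation test gave p = 0.0303. With all libraries kept, Slc39a14 was called lower with limma-voom and sample quality weights, whereas library totals in place of TMM gave a log2 fold change of -0.335. Without AF replicate 6 the groups did not overlap, the log2 fold change was -0.93 (SE 0.180, edgeR adjusted p = 0.00148) and 20.7% of genes were called lower; the exact permutation p over 462 splits was 0.00433. AF replicate 6 was left out because its values stood apart, a choice made after they were seen. The spread of Slc39a14 in PF was close to the median gene, with an SD of log2 CPM of 0.15, and in AF it was 0.66.

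Slc39a8 (ENSMUSG00000053897, chr3:135825279-135888572, + strand), the gene of ZIP8, an importer of manganese and zinc closely related to ZIP14, showed no such pattern. Its levels were 28.2, 31.7, 38.5, 35.0 and 32.2 CPM in PF and 28.7, 34.3, 32.1, 26.5, 41.2, 27.6 and 36.2 CPM in AF. The groups overlapped nearly throughout, and AF replicate 6 was the next to lowest AF liver. The log2 fold change was -0.03 (SE 0.118, edgeR adjusted p = 0.836), with a 95% interval of -0.29 to 0.22. The log2 ratio of Slc39a14 to Slc39a8 was 3.49 ± 0.179 in PF and 2.76 ± 0.772 in AF. The difference of -0.73 did not pass (exact permutation p = 0.0568, adjusted over 4 ratios 0.0568). Without AF replicate 6, again left out after its values were seen, the difference was -0.97 (adjusted p = 0.0260).

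Slc39a4 (ENSMUSG00000063354, chr15:76612383-76617384, - strand), whose human counterpart is mutated in the zinc deficiency acrodermatitis enteropathica, was higher in AF. It measured 51.3, 46.7, 28.3, 37.0 and 48.8 CPM in PF livers and 69.6, 32.8, 58.7, 66.3, 72.0, 76.0 and 55.7 CPM in AF livers. All AF livers but replicate 2 exceeded every PF liver. The log2 fold change was 0.54 (SE 0.198, 1.45-fold), with an edgeR adjusted p of 0.0449 and an exact permutation p of 0.0492. This call was close to the threshold: it was lost without any one of 9 of the 12 libraries (all but PF replicate 1 and AF replicates 2 and 7), where the adjusted p reached 0.112, and with a GC and length offset in the fit, where the log2 fold change was 0.27 (adjusted p = 0.304). The call was also lost with RLE factors (adjusted p = 0.0519), limma-voom (0.0626), limma-voom with quality weights (0.0514) and all genes of at least 1 count (0.0504). The same held for replicates 1 to 5 with the replicate block (0.0934) or without it (0.0768), and without both AF replicate 6 and PF replicate 2 (0.0872). With library totals in place of TMM the log2 fold change was larger, at 0.92. Slc39a5 (ENSMUSG00000039878, chr10:128395931-128401229, - strand), the gene of ZIP5, a basolateral importer of intestine and pancreas, had 1, 3, 1, 2 and 2 counts in PF livers and 2, 0, 2, 1, 0, 1 and 3 in AF livers, 18 in all. Each count is at or under 3, the limit that a count of 0 allows, and no difference was detectable at this depth. Its ratio to Slc39a4, fixed among the 4 ratios, has a numerator set almost wholly by the pseudocount of 0.5 CPM and restates Slc39a4, so no test is read from it: the log2 difference was -0.62 and, with raw counts + 1, -1.39.

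Among the exporters, Slc30a10 fell in AF. Slc30a10 (ENSMUSG00000026614, chr1:185454848-185468762, + strand) encodes ZnT10, a transporter that, despite its family, is known for exporting manganese from hepatocytes into bile. It measured 39.5, 32.8, 55.7, 45.1 and 49.0 CPM in PF livers and 7.07, 38.3, 15.1, 27.1, 12.6, 21.2 and 23.8 CPM in AF livers. Every AF liver except replicate 2 lay below every PF liver, and AF replicate 1 was lowest. The log2 fold change was -1.10 (SE 0.315, 0.466-fold, 95% interval -1.78 to -0.42, edgeR adjusted p = 0.0144), and the exact permutation p was 0.00758. It kept its call in each of the 25 alternative settings, with log2 fold changes from -1.37 to -0.79 and adjusted p up to 0.0382. AF replicate 6, at 21.2 CPM, was 1.09 times the median of the other AF livers, and leaving it out gave -1.11 (edgeR adjusted p = 0.0188). The noncoding gene Gm2061 overlaps 533 of its exon bases on the other strand and had 219 reads in the 12 libraries.

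Slc30a1 (ENSMUSG00000037434, chr1:191906767-191913247, + strand) encodes ZnT1, the zinc exporter of the plasma membrane and a known target of MTF1. Its levels were 59.2, 51.4, 77.8, 47.8 and 42.8 CPM in PF and 44.3, 51.0, 36.7, 40.6, 47.3, 50.6 and 50.9 CPM in AF. The groups overlapped, and 2 AF livers lay under the PF range. The log2 fold change of -0.28 (SE 0.140, 95% interval -0.58 to 0.02) did not pass (edgeR adjusted p = 0.124), and with library totals in place of TMM, which shift the median over all genes from 0.04 to 0.40, it was 0.063. Without PF replicate 3, the highest liver, it was -0.14 (adjusted p = 0.390), and without PF replicate 5, the lowest PF liver, -0.37 (adjusted p = 0.0595). AF replicate 6 was 1.11 times the median of the other AF livers. The antisense gene 1700034H15Rik overlaps 468 exon bases and had 75 reads. The log2 ratio of Slc30a1 to Slc30a10 was 0.32 ± 0.358 in PF (n = 5) and 1.28 ± 0.740 in AF (n = 7), higher by 0.97 in AF (exact permutation p = 0.0278, adjusted over 4 ratios 0.0370). The call on the ratio was lost without any one of PF replicates 1, 3, 4 and 5 or AF replicates 1, 4 and 5, with adjusted p up to 0.0848.

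**Figure D3:**
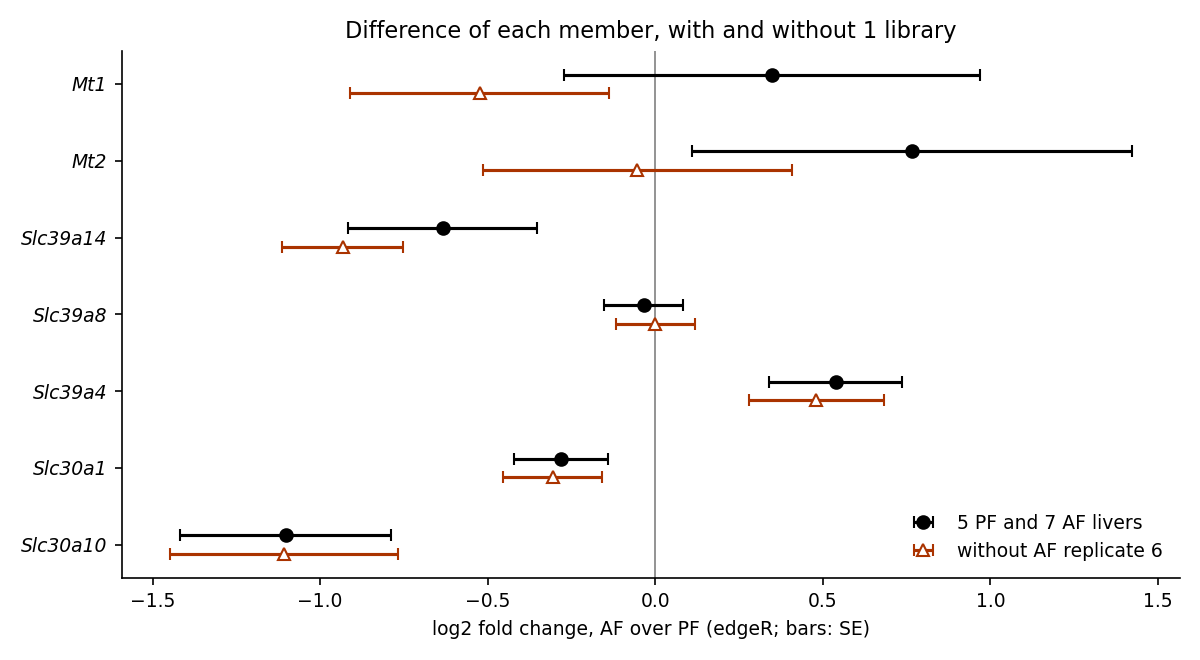
Log2 fold change of AF over PF (x axis) for the 7 members tested with edgeR, from all 12 livers (filled circles) and without AF replicate 6 (open triangles); bars give the SE. Mt1 moved from 0.35 to -0.52 and Slc39a14 from -0.63 to -0.93 when that liver was left out, whereas Slc30a10 was -1.10 and -1.11.

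Genes with the most similar pattern were ranked by Pearson r of log2 CPM over the 12 livers after removal of the group means, among 8344 genes; livers share library scaling and composition, and the values are a description. For Mt1 they were Mt2 (r = 0.986), Stat3 (0.947) and Rnf25 (0.942), and for Mt2 they were Mt1, Rnf25 (0.949) and Zswim8 (0.938). Slc39a14 was followed by Garem1 (0.945), Steap4 (0.936) and Mterf3 (0.934). In AF replicate 6 each of these neighbours of Mt1, Mt2 and Slc39a14 was above the median of the other AF livers. Stat3, for example, was at 229 against 118 CPM and Mterf3 at 22.1 against 15.7 CPM. How far that liver carried these r values was not tested. The nearest genes of Slc39a8 were Klhl7 (0.896), mt-Co1 (0.889) and Mapk9 (0.887), and those of Slc39a4 were Psmd8 (0.903), Ddb1 (0.890) and Ccnk (0.884). Slc30a1 was nearest to Anks4b (0.884), Prox1 (0.814) and Snrk (0.799), and Slc30a10 to Tcaim (0.917), Cdo1 (0.897) and Il13ra1 (0.897).

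Most other zinc transporters of the same families did not pass. Of 9 further ZIP genes tested, 4 rose in AF by edgeR, beside 22.0% over all genes, and the 5 others did not pass; Slc39a12 was below the filter. Slc39a13, which encodes a zinc transporter of the secretory pathway, went from 5.75 ± 0.879 CPM in PF to 9.30 ± 1.40 CPM in AF (log2 fold change 0.69, SE 0.139, edgeR adjusted p = 0.00218) and was the only one of the 4 with all 7 AF livers above every PF liver. Slc39a7, which releases zinc from the endoplasmic reticulum, was higher by 0.65 (adjusted p = 0.0225), Slc39a3 by 0.65 (adjusted p = 0.0140) and Slc39a11 by 0.37 (adjusted p = 0.0305). With the GC and length offset all 4 stayed higher but none passed, at 0.29, 0.36, 0.27 and 0.18, with adjusted p from 0.0649 to 0.315. Without PF replicate 2, and likewise without PF replicate 3, the ZIP and ZnT genes called higher numbered 2. Slc39a1, at 100.4 ± 6.10 CPM the most abundant of the list, had a log2 fold change of -0.03 (adjusted p = 0.787).

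Of 5 further ZnT genes tested, 1 fell, beside 17.8% over all genes, and 4 did not pass (2 were called lower without AF replicate 5, and likewise without AF replicate 6); Slc30a2, Slc30a3 and Slc30a8 were below the filter. Slc30a9 went from 76.8 ± 3.36 CPM in PF to 57.4 ± 6.98 CPM in AF (log2 fold change -0.42, SE 0.0879, edgeR adjusted p = 0.00273), and 6 of 7 AF livers lay under the PF range, with AF replicate 6 at 72.1 CPM inside it. With library totals its log2 fold change was -0.07 (adjusted p = 0.522). Slc30a5, a transporter of the secretory pathway, had -0.41 (adjusted p = 0.0767). It was -0.08 with library totals (adjusted p = 0.611) and -0.33 with the GC and length offset (adjusted p = 0.202). Slc30a5 was called lower with quality weights (adjusted p = 0.00437) and in replicates 1 to 5 with the replicate block (0.00486) or without it (0.00304). Without AF replicate 6, a choice made after the values were seen, it was -0.57 (adjusted p = 0.00161). Slc30a4 had 0.28 (adjusted p = 0.173) and was called higher with the GC and length offset (0.37, adjusted p = 0.0385), with library totals (0.67, adjusted p = 0.0254), and in replicates 1 to 5 with the replicate block (adjusted p = 0.0386) or without it (adjusted p = 0.0275).

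**Figure D4:**
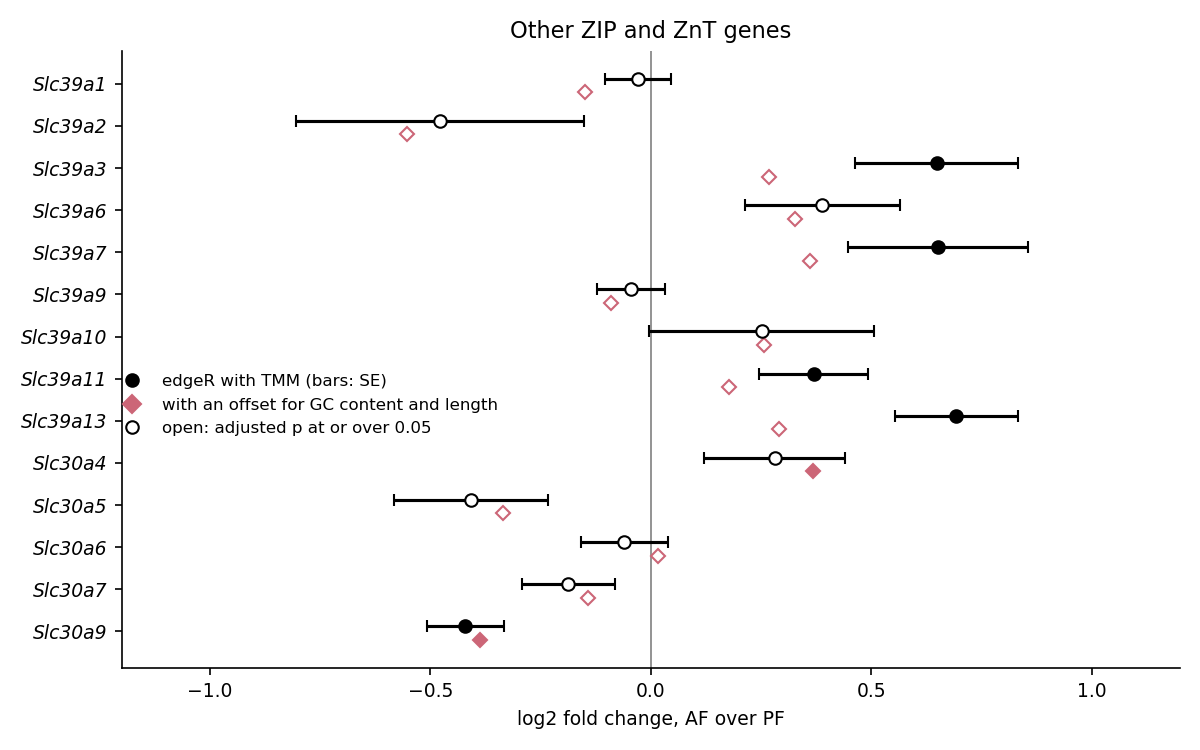
Log2 fold change of AF over PF (x axis) for the 14 other ZIP and ZnT genes tested, by edgeR with TMM (black circles, bars give the SE) and with the GC and length offset (red diamonds); filled symbols passed an adjusted p of 0.05. Slc39a13, Slc39a7, Slc39a3 and Slc39a11 are filled on the higher side with TMM and open with the offset, Slc30a4 is filled on the higher side with the offset only, and Slc30a9 is filled on the lower side in both.

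Regulators of metallothionein genes were measured in the same livers. Mtf1, the metal sensor, had 21.1 ± 2.72 CPM in PF and 18.9 ± 1.47 CPM in AF (log2 fold change -0.15, edgeR adjusted p = 0.207). Nr3c1, the glucocorticoid receptor, fell by 0.59 (SE 0.0862, adjusted p = 0.000312), with all 7 AF livers below every PF liver; with library totals it was -0.24 (adjusted p = 0.102). Nfe2l2, which encodes the antioxidant factor NRF2, rose by 0.60 (SE 0.162, adjusted p = 0.0107) in 6 of 7 AF livers above the PF range, and AF replicate 6 was the exception at 88.3 CPM. Stat3 measured 206, 226, 154, 183 and 169 CPM in PF and 114, 123, 87.5, 127, 91.2, 229 and 124 CPM in AF. Again 6 AF livers were under the PF range and AF replicate 6 was above it. The log2 fold change of Stat3 was -0.55 (SE 0.209, adjusted p = 0.0507). Without AF replicate 6 it was -0.75 (adjusted p = 0.000872), but that liver was chosen after its values were seen. With all libraries kept Stat3 was called lower with RLE factors (adjusted p = 0.0471), DESeq2 (0.0285), limma-voom (0.0379), quality weights (0.00265), thinned counts (0.0468) and the GC and length offset (0.0301), whereas with library totals it was -0.23 (adjusted p = 0.244).

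Of 9 genes tested from the interleukin-6 and STAT3 axis, 4 fell, beside 17.8% over all genes, and 5 did not pass, and Il6 itself was below the filter. The count rested on single libraries: 1 gene was called lower without any one of PF replicates 1, 2 and 3 and AF replicate 3, 2 without PF replicate 4 or AF replicate 7, and 6 without AF replicate 6. Serum amyloid genes gave the largest values, at log2 fold changes of -2.35 for Saa1 (SE 0.831, edgeR adjusted p = 0.0382) and -2.60 for Saa2 (SE 0.906, adjusted p = 0.0355), and all 7 AF livers lay under the PF range. Hp, which encodes the acute-phase protein haptoglobin, fell by 0.81 (adjusted p = 0.0302) and Il6ra, the receptor chain for interleukin-6, by 0.76 (adjusted p = 0.0210). With 1 of the 12 libraries left out at a time, the call was kept in 11 of the 12 fits for Il6ra, 8 for Saa2, 7 for Hp and 5 for Saa1, and over all 25 alternative settings the adjusted p of these genes reached 0.0730, 0.0802, 0.0631 and 0.0828. Socs3, the feedback inhibitor that STAT3 induces, measured 33.7, 34.8, 9.08, 8.25 and 17.9 CPM in PF and between 3.42 and 34.3 CPM in AF (median 9.74), where AF replicate 6 was highest (log2 fold change -0.73, adjusted p = 0.278). Among AF livers, replicate 6 was also at the top for Il6ra, Fgb and Hp, at 57.4, 9434 and 8974 CPM, and for Steap4, a metalloreductase, at 2652 CPM against a median of 573 CPM in the other AF livers. It was not the highest AF liver for the other members of the list: Saa1, Saa2, Il6 at 0.186 CPM, the receptor chain Il6st at 263 CPM and the kinase Jak1 at 206 CPM each had a higher AF liver, and for the kinase Jak2, at 24.1 CPM, AF replicate 6 was the lowest of the 12 livers. The hepatocyte marker sums of AF replicates 6 and 7, 92068 and 94631 CPM, were inside the PF range.

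**Figure D5:**
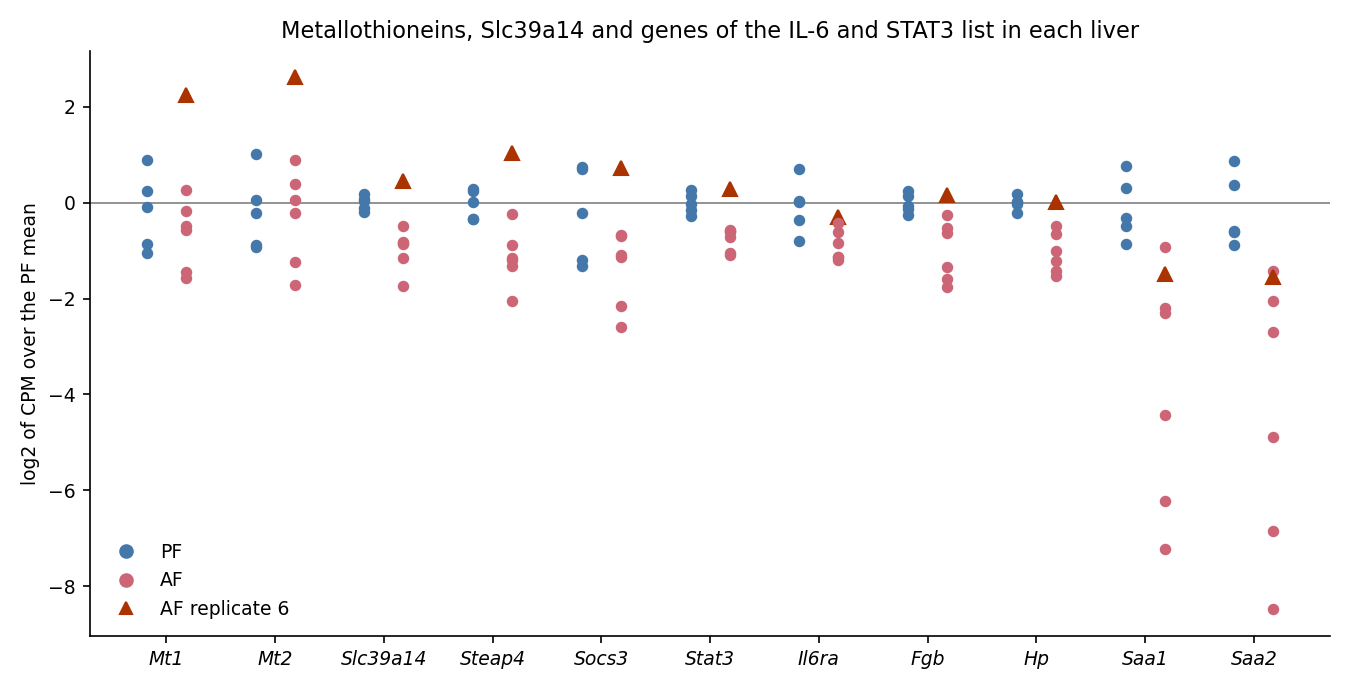
Log2 of CPM over the PF mean (y axis) for Mt1, Mt2, Slc39a14, Steap4 and 6 of the 10 genes of the interleukin-6 and STAT3 list with Stat3 in each PF (blue) and AF (red) liver, with AF replicate 6 as a triangle. AF replicate 6 is the highest AF liver for Mt1, Mt2, Slc39a14, Steap4, Socs3, Stat3, Il6ra, Fgb and Hp but not for Saa1 and Saa2, where all AF livers lie below the PF livers; Il6, Il6st, Jak1 and Jak2, not plotted, were not highest in it either.

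Genes for the handling of other metals were called in both directions, beside 22.0% higher and 17.8% lower over all genes, so that the counts below are not a result about these lists. Of 10 copper genes, 2 rose and 2 fell: the copper importer Slc31a1 went from 333 ± 14.6 CPM in PF to 209.6 ± 44.6 CPM in AF (log2 fold change -0.67, SE 0.146, edgeR adjusted p = 0.00356), ceruloplasmin (Cp) fell by 0.66 (adjusted p = 0.0104), the copper chaperone Atox1 rose by 0.63 (adjusted p = 0.00215) and Slc31a2 rose by 0.39 (adjusted p = 0.0338). Slc31a1 and Atox1 kept their calls in all 25 alternative settings, Cp lost its call with library totals (adjusted p = 0.166), and Slc31a2 lost its call without any one of the 5 PF livers or AF replicates 2, 3 and 4 and with limma-voom (adjusted p up to 0.0819). Of 6 genes that handle manganese and iron, 1 rose and 1 fell, with the iron exporter Slc40a1 at 0.59 (adjusted p = 0.0166) and transferrin (Trf) at -0.58 (adjusted p = 0.0330). The call of Trf was lost without any one of PF replicates 1, 2 and 4 and AF replicates 1, 3 and 5, without PF replicate 2 and AF replicate 6 together, and with library totals or all genes of at least 1 count (adjusted p over all 25 settings up to 0.191), while Slc40a1 kept its call in all 25. The importer Slc11a2 had a log2 fold change of -0.09 (adjusted p = 0.735). Of the 10 genes listed for zinc enzymes, 2 rose and 3 fell; Aldh2 is on that list without being a zinc enzyme and did not pass (adjusted p = 0.471). Carbonic anhydrase genes stood on both sides, with Car3 at -2.16 (adjusted p = 0.0228), Car5a at -0.90 (adjusted p = 0.0173) and Car2 at 0.88 (adjusted p = 0.0254). Sod1, the cytosolic copper and zinc superoxide dismutase, fell by 0.57 (adjusted p = 0.0273), Ace was higher by 1.06 (adjusted p = 0.0308), and Adh1, the zinc enzyme that oxidizes ethanol, had -0.30 (adjusted p = 0.368). Car5a kept its call in all 25 alternative settings and Car3 in all but the fit without PF replicate 2 (adjusted p = 0.0583). The calls of the other genes rested on single libraries: Car2 lost its call without any one of PF replicates 1 to 4, without PF replicate 2 and AF replicate 6 together and with limma-voom (adjusted p over all settings up to 0.0707), Sod1 without PF replicate 1 or 2 or AF replicate 3 or 4 and with library totals (up to 0.0636), and Ace without any one of PF replicates 2 to 5 and AF replicates 1, 3 and 4 and with limma-voom or the GC and length offset (up to 0.0894).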

How the data were processed

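Whole-liver polyA RNA of 12 samples was sequenced. The deposited table holds the authors' unnormalized counts for each gene ID, made per the submitters' processing notes with FastQC 0.10.1, TopHat2 2.0.13 and HTSeq 0.10.0 on GRCm38; the annotation and strand setting of the counting are not given in the sources used here, so reads of overlapping antisense genes may not be told apart. The study's own test on FPKM was not repeated. Gene names came from GENCODE M21 (54165 of 54232 IDs matched). No pair of libraries within a group was a duplicate. Counts were tested with edgeR 4.0.16 (R 4.3.3; TMM, filterByExpr, quasi-likelihood, group only), with Benjamini-Hochberg adjustment over all genes at 0.05; limma 3.58.1 and DESeq2 1.42.0 served as alternatives. Single genes and ratios of log2(CPM + 0.5) were tested by exact two-sided permutation, whose smallest p is 0.00126. Scripts were tested on simulated data. Totals of at least 24129900 counts leave counting error small beside the spread between livers for 7 of the 8 members; Slc39a5 and, among the listed genes, Slc39a2 (7 to 20 counts per library), Slc39a12, Slc30a2, Slc30a3, Slc30a8, Mt3, Mt4 and Il6 (0 to 11 counts) are limited by depth. Named genes were all 8 members, examples of the fixed lists with the largest and smallest changes or needed to describe regulators, and the 3 genes nearest to each member. Genes and lists were chosen with earlier results of these data known. Members without a promoter entry were Slc39a14 and Slc39a4.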

Additional observations from a re-analysis of the deposited data

Results flagged for a closer look

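In AF replicate 6 the levels of Mt1 (381 CPM), Mt2 (385 CPM) and Slc39a14 (515 CPM) were set apart from the other 6 AF livers, since the gap to the nearest liver took 80.2%, 73.3% and 61.2% of the range of the AF group. With 20 groups of values looked at, about 1 such gap arises by chance, and the 3 found fall in 1 library.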

How the results depend on the processing

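Under 25 alternative settings for each of the 7 members tested, Slc30a10 kept its direction and its call, and Mt1, Mt2, Slc39a8 and Slc30a1 passed in none. Replicate numbers are shared between the groups. Same-numbered livers deviated together with correlations of 0.00, -0.07, 0.12, 0.08 and 0.12. A liver was nearest its own number in 2 of 5 PF and 1 of 5 AF cases. These values show no clear pairing by number, and so few livers cannot exclude it. Among the members, depth limited Slc39a5. The causes of the changes listed next were not tested.

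Fitted with the replicate block on replicates 1 to 5, which leaves out AF replicate 6, Mt1 had a log2 fold change of -0.54, Mt2 -0.17, Slc39a14 -1.002 (adjusted p = 0.00382) and Slc39a4 0.48 (adjusted p = 0.0934). The same libraries with no replicate block gave -0.51, -0.019, -0.95 and 0.50. All genes called numbered 3342 higher and 2914 lower with the block and 3613 and 3090 without it. With AF replicate 6 and PF replicate 2 both left out, chosen after seeing the data, Mt1 was -0.18, Slc39a14 -0.89 and Slc39a4 0.51.

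With limma-voom Mt1 was -0.062 and Slc39a4 0.52, and with sample quality weights Mt1 was -0.018, Slc39a14 -0.89 and Slc39a4 0.50. Slc39a4 was 0.52 with RLE factors, 0.55 with all genes of at least 1 count and 0.27 with the GC content and length offset. With library totals Slc39a4 was 0.92, and its mean log2 difference in the exact permutation test on library totals was 0.87 (exact p = 0.0101). Slc39a8 turned to 0.022 with upper-quartile factors, 0.32 with library totals and 0.10 with the offset, and Slc30a1 to 0.063 with library totals. Members called higher numbered 0 where Slc39a4 lost its call, and members called lower numbered 2 where Slc39a14 gained one. In the exact permutation test on library totals the mean log2 differences of Mt1, Slc39a8 and Slc30a1 turned to 0.27, 0.30 and 0.090, and that of Slc39a14 was -0.42 (exact p = 0.130). Library totals also gave 3 related pairs of members, 8 other ZIP and ZnT genes higher and 0 lower, and 6 lower genes in the remaining lists.

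Other ZIP and ZnT genes called higher numbered 1 with the offset and 2 without both AF replicate 6 and PF replicate 2. Those called lower numbered 3 with quality weights and 2 with the replicate block, without it and without both livers. Genes of the remaining lists numbered 3 higher with limma-voom, against 6, and 19 lower with the replicate block and without it, against 11.

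Leaving out 1 library at a time gave log2 fold changes of -0.52 to 0.69 for Mt1, -0.053 to 1.19 for Mt2, -0.93 to -0.51 for Slc39a14, -0.10 to 0.022 for Slc39a8, 0.42 to 0.62 for Slc39a4, -0.37 to -0.14 for Slc30a1 and -1.34 to -0.95 for Slc30a10. The signs of Mt1 and Mt2 turned only without AF replicate 6. Members higher ranged from 0 to 1 and lower from 1 to 2. The log2 ratios ranged from -0.45 to -0.33 for Mt1 to Mt2, from -0.97 to -0.57 for Slc39a14 to Slc39a8, from -0.74 to -0.51 for Slc39a5 to Slc39a4 and from 0.75 to 1.11 for Slc30a1 to Slc30a10. Other ZIP and ZnT genes ranged from 2 to 5 higher and 1 to 2 lower, and the remaining lists from 3 to 7 higher and 5 to 16 lower. Counts of higher genes in the remaining lists were 3 without PF replicate 2, 3 or 4, and counts of lower genes 6 without PF replicate 1 or AF replicate 3 and 5 without PF replicate 2.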
